A study of Mus musculus with 22 samples.

Results

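The mouse putamen and the mouse sensorimotor cortex were compared as 2 poly(A) RNA-seq libraries out of 22 in the series, by the difference in log2(TPM + 1) of each protein-coding gene, putamen minus cortex. TPM, the abundance unit of the deposited tables, is a level scaled for gene length and library size. The series collects mouse primary cells and tissues, most of them lymphocytes, and a library of medulla oblongata, the third brain tissue, is given beside the others as values only. Each brain tissue is 1 library with no treatment; the labels name the tissue and give no strain, age, sex, dissection or number of animals, and their extraction protocol is written for cultured cells. Of 20674 protein-coding genes, 42 on chromosome Y were left out and 112 intestinal genes were set apart, which left 20520. Of the genes on chromosome Y, 3 reached 10 TPM in putamen while the highest in cortex was 0.09 TPM; the part of this or of the intestinal genes in other differences was not tested. With 1 library a tissue, region and animal cannot be told apart.

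The putamen is the dorsal part of the striatum, which in the mouse forms 1 structure with the caudate. Nearly all striatal neurons are GABAergic spiny projection neurons, which carry either the D1 dopamine receptor with substance P and dynorphin, or the D2 dopamine receptor with the adenosine receptor Adora2a and enkephalin. Dopamine acts on both through cAMP, by the G protein Golf, adenylyl cyclase 5 and the phosphatase inhibitor DARPP-32. The sensorimotor cortex instead consists mainly of layered glutamatergic projection neurons, with a minority of GABAergic interneurons, and its output reaches the striatum as glutamatergic input.

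The brain libraries held 42985601 (putamen), 52451516 (cortex) and 46332265 (medulla) expected counts, within the 30805597 to 147925523 of the series. A gene at 9 to 11 TPM rested on a median of 569 counts in putamen and 670 in cortex, a counting error of -8% to 8.6% and of -7.4% to 7.9% at 95% confidence. Of the genes compared, 10026 reached 10 TPM in at least 1 of the 2 tissues, with a median difference of -0.02 (quartiles -0.31 and 0.27). Most of the transcriptome was shared: 8242 of the 8900 genes with 10 TPM in both tissues (92.6%) lay within a difference of 1, which is 2-fold. A correlation of 0.882 (Pearson's r, log2 scale) was found across the 10026 genes, which share their library and are not replicates.

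With 1 library per tissue there is no spread between animals, no p-value and no SD, and intervals cover counting error only. A gene is therefore counted by size: a difference of at least 2 (about 4-fold) with at least 10 TPM on the higher side. By that rule 174 genes were higher in putamen (0.848% of 20520, or 1.74% of the 10026) and 208 were higher in cortex (1.01%, or 2.07%). These are the shares to set beside each list count below. With the same minimum and a difference of at least 1, 483 (2.35%, or 4.82%) and 696 (3.39%, or 6.94%) were counted. The counts hang on the cut-offs: they were 87 and 113 with a pseudocount of 5, and 305 and 227 with a minimum of 1 TPM. In bulk tissue, fewer cells of a type and less RNA per cell cannot be told apart, and this holds for every gene below.

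**Figure D1:**
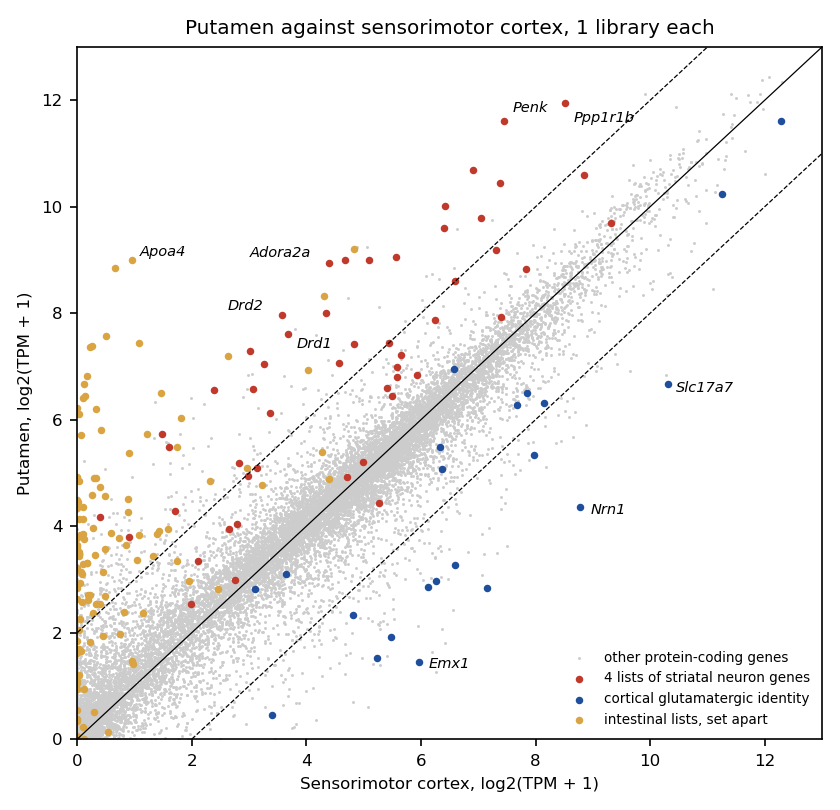
Level of each protein-coding gene in sensorimotor cortex (x axis) and putamen (y axis), both as log2(TPM + 1), 1 library each; the solid line marks equal levels and the dashed lines a difference of 2. Striatal neuron genes (red) lie above the solid line except Plxdc1, 21 of the 22 cortical glutamatergic genes (blue) lie below it, and the intestinal genes set apart (yellow) mostly lie towards the upper left.

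The most abundant group on the putamen side was the machinery of dopamine and cAMP signalling. All 21 genes of this list were higher in putamen, 10 of them past the size rule and 16 past a difference of 1, with a median difference just under 2 (that of Pde7b) against -0.02 over the 10026 genes. Their summed level was 15787 TPM in putamen, 3057 in cortex and 1015 in medulla. Ppp1r1b, which encodes DARPP-32, was the most abundant, at 3942 TPM in putamen, 366 in cortex and 66.4 in medulla. Rgs9, whose striatal splice form speeds the shut-off of G protein signals, stood highest in difference at 4.33, with 509.5 TPM in putamen, 24.5 in cortex and 12.96 in medulla. Its TPM ratio was 20.8 (95% counting interval 19.8 to 21.9).

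Each step of the cascade had members on the putamen side. Gnal, the alpha subunit of Golf, was at 387 TPM in putamen, 94.99 in cortex and 86.0 in medulla, just inside the size rule at 2.01. Gnas, the widespread alpha subunit Gs, had the other order, 831 against 2014 TPM in putamen and cortex and 3596 in medulla (difference -1.28); it belongs to no list, was picked after its values were seen, and has overlapping transcripts whose counting strand is not given in the sources used here. Gng7, the gamma subunit that pairs with Golf, measured 1653 TPM in putamen, 119.6 in cortex and 35.6 in medulla. Thus the level of Gnal was below that of Gnas in all 3 tissues, but the 2 subunits differed between putamen and cortex in opposite directions.

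Adcy5, the main striatal adenylyl cyclase, was at 779 TPM in putamen, 83.1 in cortex and 55.1 in medulla. The phosphodiesterases that break down cyclic nucleotides followed in graded steps. Pde10a was at 530.0 against 46.5 TPM (3.48) and Pde1b at 1391 against 166 TPM (3.06). Pde7b lay just outside the size rule at 172 against 42.3 TPM, and Pde2a differed by 0.99. Rasd2 (Rhes), a small GTPase of striatal neurons, was at 886 TPM in putamen, 131 in cortex and 40.9 in medulla. Rasgrp2, an exchange factor for the GTPase Rap1, was at 257 TPM in putamen, 19.3 in cortex and 43.5 in medulla. Smallest in the list were Rgs4 (822 against 637 TPM) and Rgs7bp (243 against 167 TPM), regulators of G protein signals with high levels in both tissues.

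The 2 output pathways of the striatum were both on the putamen side. Of the 8 D2 pathway genes, 6 passed the size rule and the median difference was 4.17; of the 9 D1 pathway genes, 5 passed and the median was 2.90. No gene of either list passed it in the other direction. Promoters of the receptor genes Drd2, Gpr6 and Drd1 and of the peptide gene Tac1 are shown, because cAMP is the messenger through which the striatal dopamine and adenosine receptors act. Each runs from 250 bases before to 50 after the start site (RefSeq, GRCm38.p6). Drd2 and Gpr6 were taken by the size of their difference; Drd1 and Tac1 were added after the values were seen, and Adora2a and Penk are named only. Capitals mark the cAMP response element TGACGTCA or its shorter part TGACG, searched on both strands (CGTCA on the other strand; the shorter part also lies inside the whole element).
Drd2, chr9:49340153-49340452, plus strand: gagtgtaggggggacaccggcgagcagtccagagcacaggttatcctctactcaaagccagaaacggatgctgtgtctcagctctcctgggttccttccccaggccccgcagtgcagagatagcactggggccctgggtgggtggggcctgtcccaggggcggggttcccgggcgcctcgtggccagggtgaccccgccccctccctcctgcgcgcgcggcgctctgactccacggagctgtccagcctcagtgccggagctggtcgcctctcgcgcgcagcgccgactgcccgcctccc
Gpr6, chr10:41072241-41072540, minus strand: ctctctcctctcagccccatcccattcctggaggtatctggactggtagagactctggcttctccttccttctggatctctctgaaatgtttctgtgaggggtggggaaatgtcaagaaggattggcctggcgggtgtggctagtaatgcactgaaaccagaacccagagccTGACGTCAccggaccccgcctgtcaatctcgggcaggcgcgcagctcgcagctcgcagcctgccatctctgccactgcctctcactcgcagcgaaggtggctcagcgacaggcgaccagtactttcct
Drd1, chr13:54055609-54055908, minus strand: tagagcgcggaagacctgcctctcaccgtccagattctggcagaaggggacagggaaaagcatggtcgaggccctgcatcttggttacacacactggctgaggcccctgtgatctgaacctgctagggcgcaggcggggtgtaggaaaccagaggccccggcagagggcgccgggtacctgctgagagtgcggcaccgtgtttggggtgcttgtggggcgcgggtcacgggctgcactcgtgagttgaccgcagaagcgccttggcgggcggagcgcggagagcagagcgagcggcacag
Tac1, chr6:7554811-7555110, plus strand: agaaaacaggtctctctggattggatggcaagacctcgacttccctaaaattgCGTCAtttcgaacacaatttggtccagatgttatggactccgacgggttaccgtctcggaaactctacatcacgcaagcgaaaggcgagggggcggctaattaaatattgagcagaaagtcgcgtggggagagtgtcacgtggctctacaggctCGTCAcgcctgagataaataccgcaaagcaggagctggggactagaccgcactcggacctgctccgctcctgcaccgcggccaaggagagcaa

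The whole element lay at bases -78 to -71 of Gpr6, counted from the start site, and the shorter part at -197 and -43 of Tac1. The windows of Drd2 and Drd1 hold neither, including that of a second start of Drd1. Promoters were found for 11 of the 17 D1 and D2 genes, of which 1 held the whole element and 4 the shorter part. Among 128 promoters of the genes higher in putamen, 2.34% held TGACGTCA and 18.8% held TGACG. Among 153 of the genes higher in cortex, 1.31% and 25.5% did. The share over 27025 promoters, 1 a gene, was 1.88% and 21.0%, and over 7909 promoters of genes with at least 10 TPM in either tissue 3.50% and 33.7%. The motif is a description of these letters, and neither set held it more often than the expressed genes.

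In the D2 list, Adora2a, an adenosine receptor that raises cAMP (chr10:75316877-75334792), measured 492 TPM in putamen, 19.9 in cortex and 1.62 in medulla. Its difference of 4.56 was the largest in both lists, and its TPM ratio was 24.7 (95% counting interval 23.2 to 26.4). Drd2, the D2 dopamine receptor (chr9:49340360-49408177), measured 250.2 TPM in putamen, 10.9 in cortex and 21.8 in medulla. Penk, the enkephalin precursor (chr4:4133536-4138815), reached the highest level of both lists, 3145 TPM in putamen, 175 in cortex and 385 in medulla. The ratios were 23.0 (95% counting interval 20.6 to 25.7) for Drd2 and 18.0 (95% counting interval 17.5 to 18.6) for Penk. The orphan receptors Gpr6 (155 TPM in putamen, 7.06 in cortex and 0.53 in medulla) and Gpr52 (93.3 TPM in putamen, 4.20 in cortex and 1.52 in medulla) had close to the same difference, 4.28 and 4.18. Sp9, a transcription factor of this cell type, was at 35.5 against 6.04 TPM. Grik3 (35.8 against 30.6 TPM) and Plxdc1 (20.8 against 37.4 TPM) lay within a difference of 1, Plxdc1 on the cortex side.

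In the D1 list, Drd1, the D1 dopamine receptor (chr13:54051183-54055658), measured 195 TPM in putamen, 11.8 in cortex and 0.50 in medulla. Tac1, the precursor of substance P, measured 512 TPM in putamen, 33.2 in cortex and 86.3 in medulla. The ratios were 16.6 (95% counting interval 15.5 to 17.8) and 15.4 (95% counting interval 14.3 to 16.7). Drd1 was close to 0 in medulla, whereas Tac1 in medulla exceeded its level in cortex. Slc35d3, a transporter-like protein of D1 neurons, was at 43.8 against 2.03 TPM, Isl1 at 17.0 against 0.31 TPM and Ebf1 at 12.9 against 0.86 TPM, but Ebf1 was higher still in medulla at 22.9. Pdyn, the dynorphin precursor, was at 127 TPM in putamen, 47.0 in cortex and 18.1 in medulla, a difference of 1.41 that is not past the size rule. Chrm4, the M4 muscarinic receptor, differed by 1.18, at 95.1 against 41.4 TPM. The peptide marker of D1 neurons with the smaller difference was thus the opioid precursor and not substance P.

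**Figure D2:**
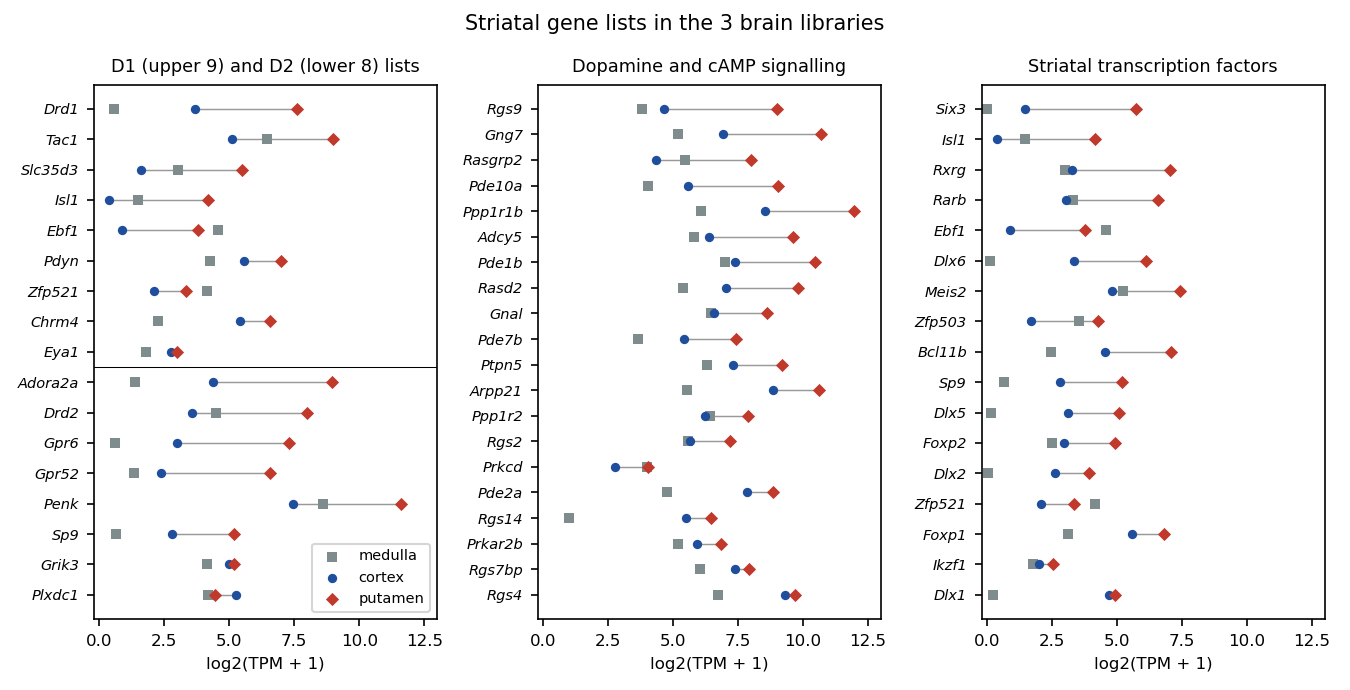
Levels as log2(TPM + 1) (x axis) of the genes of the D1 and D2 pathways, of dopamine and cAMP signalling and of striatal transcription factors, in putamen (red diamonds), cortex (blue circles) and medulla (grey squares), 1 library each; not every member of the second list is drawn. The red diamond lies to the right of the blue circle for every gene drawn except Plxdc1, and medulla lies below cortex for Drd1 and Adora2a and above it for Tac1, Drd2 and Penk.

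Transcription factors that specify striatal neurons followed the same order. All 17 were higher in putamen, 10 past the size rule and 14 past a difference of 1, with a median of 2.51. Six3 had the largest difference at 4.24 (51.9 TPM in putamen, 1.8 in cortex and 0.01 in medulla). The most abundant were Meis2 (171 against 27.3 TPM), Bcl11b (133 against 22.6 TPM; also called Ctip2) and Rxrg (130.4 against 8.58 TPM). The Dlx factors of GABAergic neurons were graded: Dlx6 differed by 2.76, Dlx5 by 1.97, Dlx2 by 1.30 and Dlx1 by 0.22. All 4 stood at or below 0.17 TPM in medulla. Foxp2 (1.97) and its relative Foxp1 (1.24) stayed under the size rule.

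Retinoic acid signalling, which acts in striatal development, was represented on the putamen side by receptors and 1 binding protein and not by the whole pathway. Of 17 genes, 3 passed the size rule in putamen and none in cortex, with a median of 0.39. Crabp1, a cellular binding protein for retinoic acid, was at 32.6 TPM in putamen, 0.39 in cortex and 22.6 in medulla. The receptors Rxrg (130.4 TPM in putamen, 8.58 in cortex and 7.12 in medulla) and Rarb (93.9 TPM in putamen, 7.36 in cortex and 8.85 in medulla) passed it, while Rara went the other way with a difference of -1.41 (3.57 against 11.1 TPM). The synthesis enzymes Aldh1a1 (27.1 against 27.5 TPM) and Aldh1a2 (6.45 against 6.32 TPM) were at the same level in both tissues, and Aldh1a1 reached 226 TPM in medulla.

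Cholinergic interneurons, the large acetylcholine-releasing neurons of the striatum, had low levels that differed between the tissues. Of 9 markers, 4 passed the size rule, all in putamen, and the median was 2.81. Chat, which makes acetylcholine, was at 16.8 TPM in putamen, 1.16 in cortex and 13.9 in medulla, and its vesicular transporter Slc18a3 at 10.6 TPM in putamen, 0.88 in cortex and 25.7 in medulla. The choline transporter Slc5a7 measured 14.2 TPM in putamen, 1.16 in cortex and 24.4 in medulla and Slc10a4 17.1 TPM in putamen, 0.76 in cortex and 15.7 in medulla. Medulla, which holds cholinergic motor nuclei, had these genes at similar or higher levels. Ache, which breaks acetylcholine down, was abundant in both tissues (66.4 against 49.2 TPM). Lhx8, a factor of cholinergic and basal forebrain neurons, was at 7.55 TPM in putamen, 0.18 in cortex and 0 in medulla and missed the minimum of 10 TPM; its ratio of 41.9 (95% counting interval 20.1 to 105) rests on few counts.

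Neuropeptides divided between the tissues, 3 of 18 past the size rule on each side (median -0.39). On the putamen side, beside Penk and Tac1, stood Nts, the neurotensin precursor, at 64.7 TPM in putamen, 3.08 in cortex and 30.2 in medulla. On the cortex side, Cck, the cholecystokinin precursor, measured 113 TPM in putamen, 1233 in cortex and 114 in medulla. Vip, the marker of an interneuron class, measured 2.11 TPM in putamen, 71.9 in cortex and 3.30 in medulla, and Adcyap1, the precursor of PACAP, 0.60 TPM in putamen, 13.6 in cortex and 27.7 in medulla. Somatostatin (Sst) was high in all 3 tissues, at 616, 773 and 459 TPM. Among 20 peptide receptors, 1 passed in putamen and 4 in cortex (median -0.74). The putamen gene was Tacr1, the receptor of substance P (11.6 against 1.55 TPM). The cortex genes were Cckbr (8.95 against 46.6 TPM), Crhr1 (2.96 against 26.7 TPM), Sstr1 (3.20 against 21.4 TPM) and Sstr3 (1.91 against 17.7 TPM). The kappa opioid receptor Oprk1, which binds dynorphin, was at 7.85 against 0.87 TPM. Its difference of 2.24 was past 2, but its level missed the minimum of 10 TPM. The mu receptor Oprm1 was low in both (2.86 against 0.97 TPM).

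On the cortex side, the identity genes of cortical glutamatergic neurons formed the clearest group. Of 22 genes, 11 passed the size rule and 16 a difference of 1, all in cortex, with a median of -2.56. Their summed level was 5001 TPM in putamen, 10969 in cortex and 807 in medulla. Slc17a7, the vesicular glutamate transporter VGLUT1 (chr7:45163921-45176139), measured 101 TPM in putamen, 1271 in cortex and 70.0 in medulla, a TPM ratio of 0.0794 (95% counting interval 0.0772 to 0.0817). Emx1, the homeobox factor of the dorsal forebrain, had the largest difference of the list at -4.50 (1.74 TPM in putamen, 61.2 in cortex and 0.41 in medulla). The vesicular zinc transporter Slc30a3 was at 6.15 TPM in putamen, 141 in cortex and 48.7 in medulla, and Nrn1 (neuritin), an activity-related membrane protein, at 19.4 TPM in putamen, 436 in cortex and 163 in medulla.

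The transcription factors of cortical projection neurons were low in putamen but not at 0. Tbr1 was at 8.60 against 95.2 TPM and Bhlhe22 at 1.88 against 36.5 TPM. Neurod2 (6.24 against 68.4 TPM) and Neurod6 (6.79 against 75.5 TPM) had nearly the same levels as each other in both tissues. Mef2c (-1.84), Zbtb18 (-1.35) and Lhx2 (-0.85) differed less. Camk2a and Nrgn, synaptic genes that striatal neurons also express, were high in both, at 1202 against 2453 TPM and 3143 against 5013 TPM.

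Layer markers did not share 1 direction. Of 17 genes of layers 2 to 4, 4 passed the size rule and 10 a difference of 1 in cortex (median -1.32). Stard8 (3.60 against 38.0 TPM) and Cux2 (7.68 against 62.5 TPM) led them, followed by Rspo1 (-2.18) and Rasgrf2 (-2.03). Rorb, a layer 4 factor, differed by -1.60, and Cux1 by only -0.47. The layer 5 list was near balance, with 2 of 16 past the rule in putamen, 1 in cortex and a median of -0.23. Fezf2, the factor of layer 5 output neurons, was at 4.03 against 27.1 TPM. Crym (275 TPM in putamen, 37.6 in cortex and 5.11 in medulla) and Pcp4 (4460.0 TPM in putamen, 965 in cortex and 397 in medulla), which striatal neurons also express, went the other way. In layers 6 and 6b, 1 of 16 passed on each side (median -0.10): Syt6 in putamen (83.1 against 18.0 TPM) and Tbr1 in cortex.

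GABAergic markers were present in both tissues. Of 20, none passed the size rule in putamen and 2 did in cortex, Pvalb and Vip (median -0.24). The synthesis enzymes were on the putamen side, Gad2 at 168 against 70.7 TPM and Gad1 at 377 against 292 TPM, as was the vesicular transporter Slc32a1 (268 against 116 TPM). Pvalb, the calcium buffer of fast-spiking interneurons, measured 83.7 TPM in putamen, 401 in cortex and 466 in medulla. Npy differed by -0.46 and Sst by -0.33, while Lhx6, a factor of both interneuron classes, differed by -0.53.

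**Figure D3:**
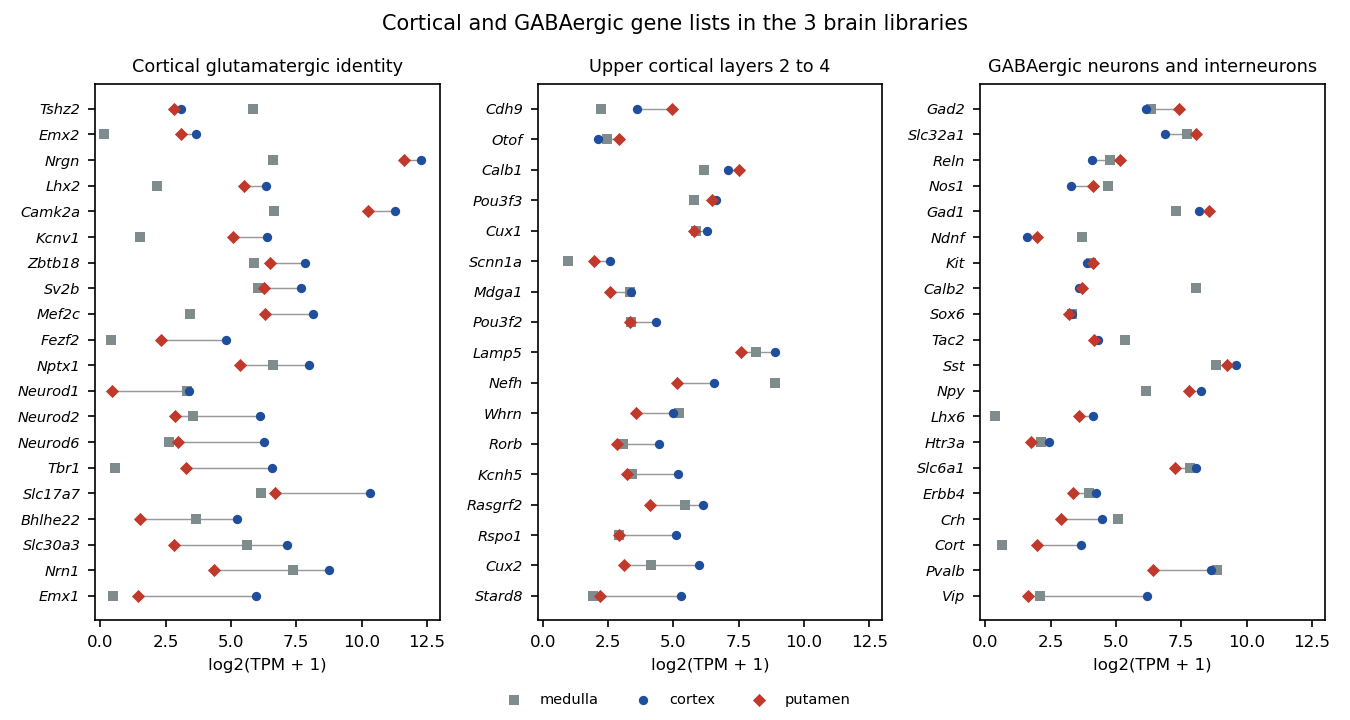
Levels as log2(TPM + 1) (x axis) of cortical glutamatergic identity genes, markers of layers 2 to 4 and GABAergic markers, in putamen (red diamonds), cortex (blue circles) and medulla (grey squares), 1 library each. Not every member of the first list is drawn. The cortical identity genes drawn lie to the right in cortex, whereas the GABAergic markers are mixed, with Pvalb and Vip the genes farthest to the cortex side.

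Receptors for monoamines, acetylcholine and adenosine divided by subtype. Of 34, 5 passed the size rule in putamen and 3 in cortex (median -0.09). Beside Drd1, Drd2 and Adora2a, the putamen genes were the serotonin receptors Htr2c (31.6 TPM in putamen, 3.53 in cortex and 58.6 in medulla) and Htr1b (77.0 TPM in putamen, 14.4 in cortex and 10.6 in medulla). The cortex genes were the alpha-1 adrenergic receptors Adra1d and Adra1b (2.78 against 21.6 TPM) and the muscarinic receptor Chrm3 (8.91 against 40.1 TPM). Adra1d (chr2:131545357-131562497) had the largest difference of all 208 genes higher in cortex, -5.00, with 1.40 TPM in putamen, 75.6 in cortex and 10.8 in medulla. Adora1, the inhibitory adenosine receptor, had a difference of -1.13 (92.4 against 204 TPM), opposite in direction to Adora2a. The dopamine receptors Drd3, Drd4 and Drd5 were low, at 0.36, 0.09 and 1.43 TPM in putamen.

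Fewer glutamate than GABA receptor genes passed the size rule. The shares over the 10026 genes were 1.74% in putamen and 2.07% in cortex. Of 25 glutamate receptor genes, 1 passed the size rule: Grm2, a presynaptic inhibitory receptor, at 1.64 TPM in putamen, 37.9 in cortex and 5.06 in medulla. Grm4 (1.62) and Grm5 (1.24) leaned to putamen, and the NMDA subunit Grin2a (-1.42) to cortex; the list's median was 0.15. The obligate NMDA subunit Grin1 was nearly equal, 327 against 367 TPM. Of 15 GABA receptor genes, 3 passed in cortex and none in putamen (median 0.11). These included Gabra3 (21.8 against 95.2 TPM) and the GABA-B subunit Gabbr2 (32.3 against 211 TPM), whose partner Gabbr1 was close in both at 396 against 380.3 TPM. Gabra4, the alpha subunit known from spiny neurons, was at 148 against 73.1 TPM.

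Among 37 potassium channel genes, 3 passed the size rule in putamen and 7 in cortex (median -0.81). The putamen genes were the Kv1 channels Kcna5 (35.3 TPM in putamen, 2.06 in cortex and 6.22 in medulla), Kcna4 (40.6 TPM in putamen, 8.12 in cortex and 7.2 in medulla) and the accessory subunit Kcnab1 (415 TPM in putamen, 67.0 in cortex and 86.3 in medulla). Other Kv1 channels leaned to cortex, Kcna1 by -0.45, Kcna2 by -0.81, Kcna3 by -0.31 and Kcna6 by -0.90. The cortex genes included the G protein-gated channels Kcnj3 (9.51 against 74.7 TPM), Kcnj6 (3.48 against 41.6 TPM) and Kcnj9 (26.9 against 147 TPM). Kcnc2 (4.42 against 44.6 TPM) and Kcnc4 (9.51 against 51.6 TPM), of the Kv3 group of fast-spiking neurons, were also among them, with Kcns1 (5.89 against 34.99 TPM) and Kcnh7 (4.15 against 39.8 TPM). Kcnj2 and Kcnj4, the inward rectifiers of spiny neurons, differed by 1.63 and 0.63. The endocannabinoid list (10 genes, median -0.81) had no gene past the size rule; the receptor Cnr1 was at 165 against 59.98 TPM and the degrading enzyme Faah at 15.0 against 59.1 TPM.

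Activity-regulated genes were mostly higher in cortex, 18 of 22 by any amount, with a median of -0.47. Only 3 passed the size rule: Bdnf, a neurotrophin (3.19 TPM in putamen, 37.8 in cortex and 7.53 in medulla), Arc, a synaptic protein made on activity (124 TPM in putamen, 564 in cortex and 21.3 in medulla), and Ier2 (4.28 against 20.8 TPM). Fos differed by -1.11, Egr1 by -0.92 and Junb by 0.45, so members of the early response did not share 1 direction. Heat shock genes (10, median -0.24) and housekeeping genes (12, median -0.08) had none past the size rule.

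Of the 40 genes with the largest difference in each direction, 18 on the putamen side and 16 on the cortex side belong to the lists above or below; 1 and 2 are gene models without a name. Outside the lists, abundant putamen genes were Lrrc10b (606 TPM in putamen, 28.6 in cortex and 2.19 in medulla) and Syndig1l (604 TPM in putamen, 32.1 in cortex and 35.4 in medulla), the latter a relative of a synapse differentiation protein. Actn2, an actin crosslinker of dendritic spines, was at 116 TPM in putamen, 7.29 in cortex and 1.61 in medulla, the developmental factor Dach1 at 47.0 TPM in putamen, 1.94 in cortex and 7.36 in medulla and Ano2, a calcium-gated chloride channel, at 35.1 TPM in putamen, 1.49 in cortex and 3.19 in medulla. Several putamen genes are better known from the immune system. Cd4, a T cell coreceptor, was at 77.0 TPM in putamen, 3.64 in cortex and 0.15 in medulla, while the tryptophan-degrading enzyme Ido1 was at 51.8 TPM in putamen, 2.48 in cortex and 0.35 in medulla and Serpina9 at 84.0 TPM in putamen, 2.94 in cortex and 1.08 in medulla. All 3 were lower still in medulla than in cortex. The T cell genes Cd3e, Cd3d and Cd3g, looked up after these values were seen, were at 0.32, 0.22 and 1.15 TPM in putamen. The leukocyte gene Ptprc was at 1.74 against 1.82 TPM. Which cells hold Cd4, Ido1 and Serpina9, or the protease Gzma given next, was not tested.

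Other genes on the putamen side had low levels in cortex and a small one in medulla. Plac8 was at 79.1 TPM in putamen, 1.57 in cortex and 6.69 in medulla, Ada (adenosine deaminase) at 49.5 TPM in putamen, 1.52 in cortex and 4.84 in medulla and the protease Gzma at 17.6 TPM in putamen, 0.23 in cortex and 1.23 in medulla. Crip1 was at 207 TPM in putamen, 13.01 in cortex and 31.8 in medulla and Ifi27l2b, with the largest difference of the side, at 36.4 TPM in putamen, 0.09 in cortex and 1.07 in medulla. Clca4b, S100g and Aoc1 were listed at 0 in cortex, against 29.8, 18.4 and 14.4 TPM in putamen. S100g is known as a calcium-binding protein of the duodenum and Aoc1 as an intestinal diamine oxidase, and neither is in the intestinal lists. Clca4b is not in them either, but its relative Clca4a is (9.89 TPM in putamen, 0.02 in cortex and 0.24 in medulla). The place of all these genes, from Plac8 to Aoc1, beside the intestinal genes described at the end was not tested. All of them are counted among the genes higher in putamen.

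Outside the lists on the cortex side, stood several proteins of synapses and axons. Cbln2 (4.35 against 92.9 TPM) and Cbln4 (3.37 against 60.7 TPM) are secreted cerebellins that bridge synapses. Rtn4r, the Nogo receptor, was at 10.2 TPM in putamen, 159 in cortex and 11.1 in medulla and its relative Rtn4rl2 at 7.08 TPM in putamen, 87.2 in cortex and 1.64 in medulla. Dkkl1 followed Adra1d in size with 2.48 TPM in putamen, 84.8 in cortex and 2.15 in medulla. The channel subunit Kcnab3 was at 11.3 against 179 TPM and Hapln4, a link protein of perineuronal nets, at 13.4 against 133 TPM; medulla had 112 and 126 TPM. Frzb (1.89 against 30.2 TPM) and Wnt10a (1.34 against 24.5 TPM) belong to the Wnt pathway, and Cadps2 (10.5 against 113 TPM) acts in the release of dense-core vesicles.

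The size rule cuts through a continuum. Just inside it lay Gnal (2.01) in putamen and Hecw1, Calhm2 (-2.01) and Osbpl1a (-2.01) in cortex. Just outside lay Pde7b and Anxa2 (1.99) in putamen, and Dusp5 and Mlip (-1.99) in cortex. In all, 22 genes lay within 0.04 of it.

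**Figure D4:**
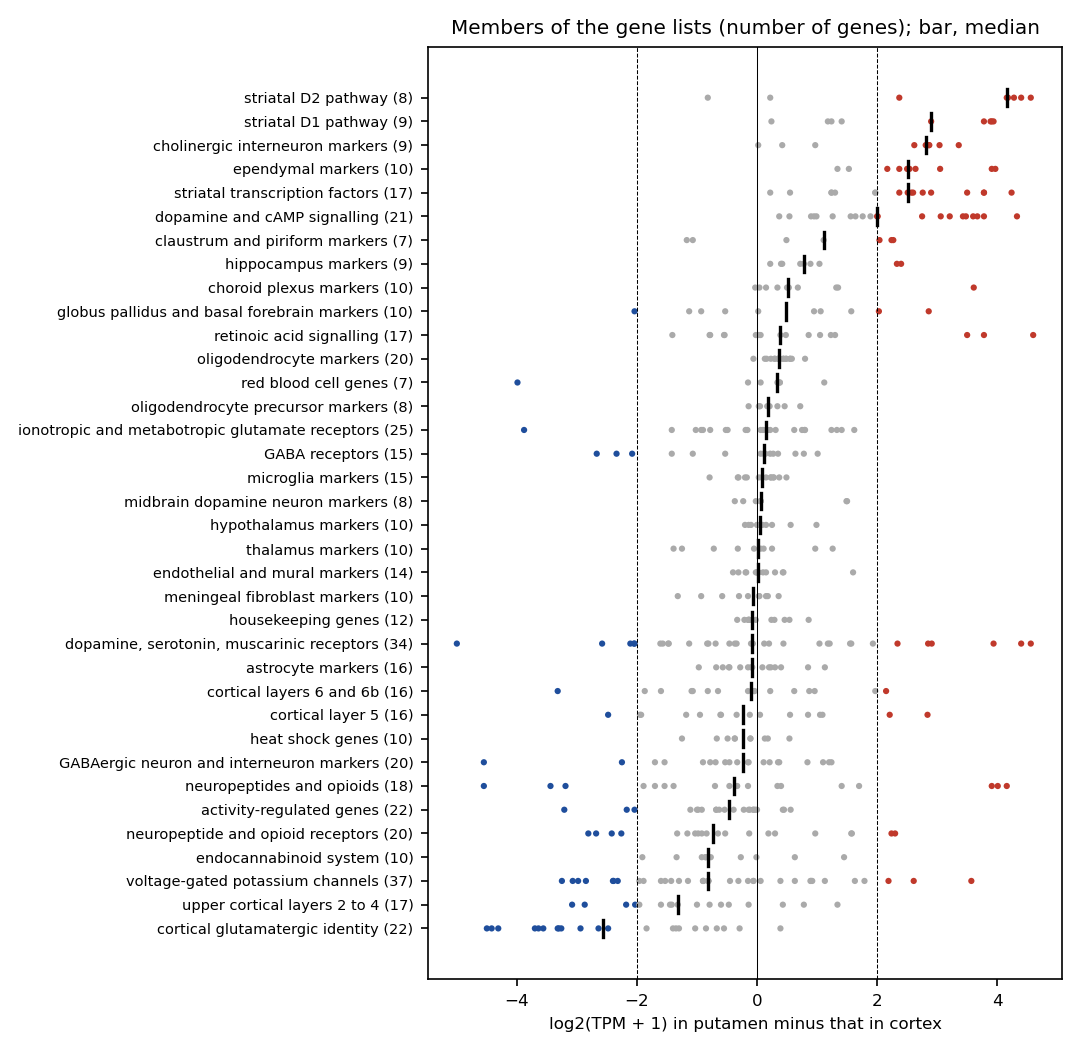
Difference in log2(TPM + 1), putamen minus cortex (x axis), of every member of the gene lists (y axis, number of genes in brackets), with black bars at the medians and colour for a difference of at least 2 in size whatever the level. The D1, D2, cholinergic, ependymal and striatal transcription factor lists have medians above 2, the dopamine list has its median just under 2, the cortical glutamatergic list has the lowest at -2.56, and glial lists lie near 0.

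Glial and vascular genes differed little between the 2 tissues. Oligodendrocyte markers (20) had a median of 0.37 and none past a difference of 1, with a summed level of 10324 TPM in putamen, 7857 in cortex and 33514 in medulla. Oligodendrocyte precursors (8; median 0.19), microglia (15; 0.09) and endothelial and mural cells (14; 0.01) had none past it with at least 10 TPM either; below that level, Acta2, a smooth muscle actin of mural cells, was at 7.55 against 1.83 TPM, also past it. Microglial genes summed to 888 TPM in putamen and 881 in cortex. Of 16 astrocyte markers (median -0.09), 1 passed a difference of 1, Agt, the angiotensinogen gene, at 11.6 TPM in putamen, 4.74 in cortex and 253 in medulla.

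The lining of the ventricle was an exception among the non-neuronal cells. All 10 ependymal markers were higher in putamen, 7 past the size rule, with a median of 2.52 and a summed level of 207 TPM in putamen, 34.7 in cortex and 82.3 in medulla. Foxj1, the factor of motile cilia, was at 28.1 TPM in putamen, 4.14 in cortex and 22.2 in medulla, Tmem212 at 21.7 TPM in putamen, 0.51 in cortex and 3.43 in medulla and Ccdc153 at 29.3 TPM in putamen, 0.93 in cortex and 1.75 in medulla. The choroid plexus list (10 genes, median 0.51) had 1 gene past the rule, Clic6 (17.0 TPM in putamen, 0.47 in cortex and 1.06 in medulla). Of its 10 genes, 9 were higher in putamen by any amount, with a summed level of 43.9 against 20.7 TPM. The 1 on the cortex side was Ttr, nearly equal at 16.5 against 16.8 TPM. Only 2 of these genes reached 10 TPM in either tissue, so the rule could count few of them. Meningeal fibroblast markers had a median of -0.06 with none past a difference of 1 at 10 TPM or more; below that level, the transporter Slc22a6 differed by -1.32 (0.81 against 3.53 TPM). Haemoglobin genes are near-identical copies whose reads can be split between rows, so Hbb-bs, listed at 0 in putamen and 14.9 TPM in cortex, is uncertain; the other 6 red blood cell genes did not pass the size rule.

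Markers of regions that border the putamen were checked in the same way, and their part in the differences was not tested. The claustrum and piriform list (7 genes, median 1.11) had 2 genes past the rule in putamen, both also known elsewhere in the forebrain. These were Nnat (457 TPM in putamen, 94.0 in cortex and 473 in medulla) and Synpr (277 TPM in putamen, 66.5 in cortex and 45.3 in medulla). Of the 7 genes, 5 were higher in putamen by any amount, among them Gnb4 (20.3 against 8.87 TPM). The 2 on the cortex side were Nr4a2 (11.2 against 24.6 TPM) and Ntng2 (16.0 against 37.2 TPM). The globus pallidus and basal forebrain list (10; median 0.48) had none in putamen and Kcng4 in cortex (2.01 against 11.4 TPM). Only 3 of its genes reached 10 TPM in either tissue, so the rule could count few of them. Below that level, its pallidal factor Nkx2-1 was at 3.85 against 0.19 TPM (2.03) and Lhx8 at 7.55 against 0.18 TPM (2.86), both past a difference of 2. By any amount, 6 of the 10 genes were higher in putamen and 4 in cortex. All 9 hippocampal markers were higher in putamen by any amount (median 0.78), though only 3 reached 10 TPM in either tissue. Spink8 passed the rule (10.4 against 1.15 TPM), with Wfs1 at 139 against 74.5 TPM and Prox1 at 5.30 against 3.70 TPM. Lct, also in that list and known as intestinal lactase, was at 6.80 against 0.55 TPM. The thalamus (10 genes, median 0.01), hypothalamus (10, 0.05) and midbrain dopamine (8, 0.06) lists had no gene past the rule. Of their genes only 4, 0 and 2 reached 10 TPM in either tissue, so the rule could count few or none. Th, the dopamine synthesis enzyme, was at 8.07 TPM in putamen, 2.21 in cortex and 16.1 in medulla, and the dopamine transporter Slc6a3 at or below 0.15 TPM in all 3.

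Genes of the intestinal epithelium were set apart because they were high in the putamen library. All 6 genes that define the set passed the size rule, which is a description, since they were chosen for their level there. Apoa4, an apolipoprotein of enterocytes (chr9:46240844-46243458), measured 512 TPM in putamen, 0.93 in cortex and 18.5 in medulla. Fabp2, the intestinal fatty acid binding protein, measured 457 TPM in putamen, 0.58 in cortex and 27.1 in medulla, and its relative Fabp1 319 TPM in putamen, 18.8 in cortex and 32.7 in medulla. Apoa1 was at 591 TPM in putamen, 27.4 in cortex and 51.7 in medulla; the disaccharidase Sis was at 19.5 TPM in putamen, 0.07 in cortex and 1.22 in medulla and the brush border phosphatase Alpi at 16.5 TPM in putamen, 0.02 in cortex and 0.89 in medulla. In the 19 non-brain libraries the 6 genes summed to 1.42 TPM at most.

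The wider intestinal list, which includes those 6 genes, had the same order of tissues. Its members were chosen with earlier results of these data known, so its counts too are a description. Of all 112 genes, 57 passed the size rule in putamen and none in cortex, and 60 reached 10 TPM in putamen, 10 in medulla and 5 in cortex. Of the 106 genes beyond the 6, 51 passed in putamen and none in cortex. The 112 genes summed to 4752 TPM in putamen (0.475% of all TPM), 465 in medulla (0.0465%) and 171 in cortex (0.0171%), and 98 of them were ordered putamen, medulla, cortex from high to low. Unlike the 6, the 112 genes were not near 0 in the 19 non-brain libraries, where they summed to 83.7 to 2030 TPM. The 106 further genes were highest there in back skin, with a median of 173 TPM over the 19 libraries. Among the intestinal genes with at least 10 TPM in putamen, the level in medulla was a median of 7.68% of that in putamen (quartiles 5.97% and 11.5%). Picking genes by their level in putamen itself favours a low share in medulla, so this is a description. Reg3b, an antimicrobial lectin, was at 166 TPM in putamen, 0.20 in cortex and 19.3 in medulla, Rbp2, the intestinal retinol binding protein, at 164 TPM in putamen, 0.16 in cortex and 7.76 in medulla, and Prap1 at 189 TPM in putamen, 0.42 in cortex and 8.09 in medulla. With these genes counted, 231 instead of 174 would be higher in putamen. The neuronal and ependymal lists share no gene with the intestinal lists, and the part of the intestinal signal in any other gene was not tested.

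**Figure D5:**
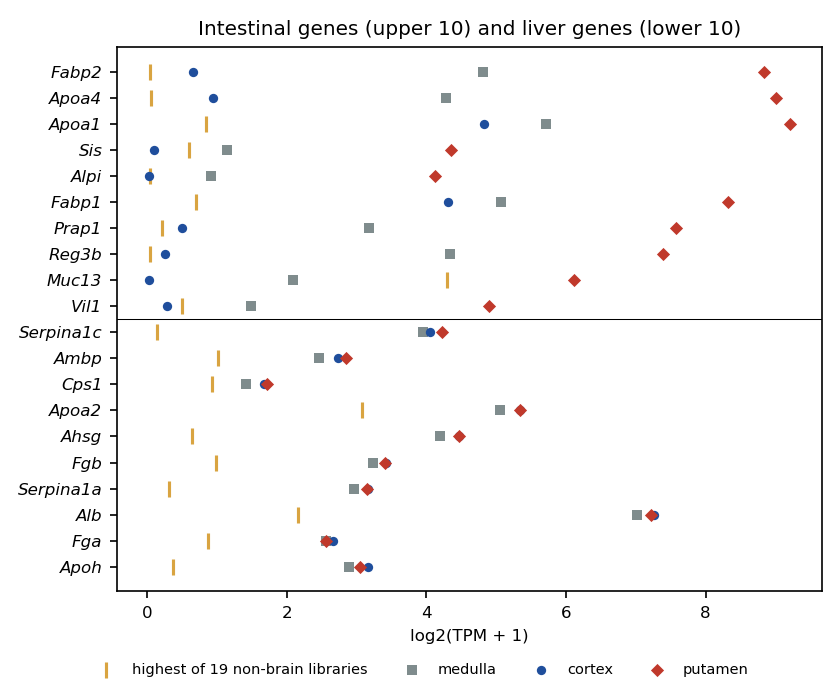
Levels as log2(TPM + 1) (x axis) of 10 intestinal and 10 liver genes in putamen (red diamonds), cortex (blue circles) and medulla (grey squares), with the highest of the 19 non-brain libraries (yellow bars), 1 library each. The intestinal genes are spread from putamen down to cortex, whereas the liver genes lie close together in the 3 brain libraries, above the non-brain ones.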

How the data were processed

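The submitters' processing notes name CASAVA 1.8.2, STAR, RSEM, bedtools and the mouse build mm10, with no role, order or settings; annotation and strandedness are not given in the sources used here. Per the labels' protocols, poly(A) RNA was sequenced for 50 cycles on an Illumina HiSeq. The deposited tables give per gene the expected counts (the authors' estimate of reads, not normalized) and TPM (scaled by the authors for length and library size). FPKM was not used.

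Each file lists 24911 genes, 20674 of them protein-coding; other gene types were all at 0 and were left out. From TPM, log2(TPM + 1) was computed, and putamen minus cortex taken. Expected counts gave the depth and an exact (Clopper-Pearson) 95% interval of each ratio, rounded to whole counts, which covers counting error only. Positions and promoters are from RefSeq GRCm38.p6; 20606 protein-coding genes had a position. No test between tissues was made, since each has 1 library.

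Genes were named from 40 gene lists, some of which share genes, and from the 40 largest differences in each direction whose role is known; some members are counted with their lists but not reported here by name. Intestinal genes were set apart with 106 more than the 6 that define them. Members and lists were chosen with earlier results of these data known. Alternatives were pseudocounts of 0.1 and 5, CPM with TMM factors, other TPM scalings, TPM minima and sizes. Python 3.11.15, pandas 2.3.3, numpy 2.4.6, scipy 1.17.1, R 4.3.3 and edgeR 4.0.16 (TMM factors only) were used.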

Additional observations from a re-analysis of the deposited data

How the results depend on the processing

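The main counts, 174 genes higher in putamen and 208 in cortex, stayed within 1.5 times under a pseudocount of 0.1 (190 and 235), TMM-scaled CPM (167 and 210, of which 138 and 192 were among the main genes), TPM rescaled without intestinal, red blood cell, mitochondrial and chromosome Y genes (177 and 208), TPM centred on the median (176 and 204) and with the intestinal genes kept (231 and 208). They were 87 and 113 with a pseudocount of 5. With a minimum of 1 TPM, or with none, 305 genes were higher in putamen and 227 in cortex. They were 483 and 696 at a difference of at least 1, and 78 and 59 at a difference of at least 3. Of 40 gene lists, 11 had a median of at least 1 in size, and 10 to 12 under the 5 alternatives; no list or named gene changed direction past the size rule. Of 676 named or listed genes, 29 lost and 14 gained the size rule under CPM, which is not scaled for length. A pseudocount of 5 took it from 59. No paired analysis was possible because each group has 1 library. Counts of low genes limit the ratios: a value near 0 TPM in 1 tissue has no firm fold.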

Other observations

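Genes of the liver were present at close levels in all 3 brain libraries. The 10 liver genes summed to 265 TPM in putamen, 267 in cortex and 225 in medulla, against 0.07 to 8.30 TPM in the 19 non-brain libraries. Albumin (Alb) was at 149 TPM in putamen, 152 in cortex and 128 in medulla, Apoa2 at 39.6 TPM in putamen, 39.4 in cortex and 32.4 in medulla and the fetuin gene Ahsg at 21.1 TPM in putamen, 21.1 in cortex and 17.3 in medulla. The differences between putamen and cortex ran from -0.12 (Apoh) to 0.16 (Serpina1c), so this set lacked the order of tissues that the intestinal genes had. The 10 genes of the exocrine pancreas stood near 0, at a summed 4.31, 6.86 and 8.10 TPM.

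Ncam1, a neural cell adhesion molecule widely expressed in neurons, was among the 40 largest differences in putamen with 113 TPM in putamen, 6.90 in cortex and 153 in medulla. The expected counts behind these levels were 11467, 853 and 16461. The TPM ratio of putamen to cortex was 16.4 (95% counting interval 15.3 to 17.6), while medulla was higher than putamen. The low level in cortex is out of line with other neuronal genes, picked after their values were seen: its relative Ncam2 was at 41.5 against 49.5 TPM, Map2 at 355 against 428 TPM and Rbfox3 at 239 against 353 TPM. The ratio of Ncam1 is therefore in doubt beyond its counting interval, and the cause was not tested.

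High-abundance genes outside the lists, chosen after their values were seen, also divided between the tissues. Scn4b, an auxiliary sodium channel subunit, was at 764 TPM in putamen, 97.4 in cortex and 159 in medulla. Olfm1 was at 348 TPM in putamen, 2183 in cortex and 361 in medulla and Vsnl1, a neuronal calcium sensor, at 119.7 TPM in putamen, 798 in cortex and 842 in medulla, both higher in cortex.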
